A study of Mus musculus with 15 samples.

Results

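The question addressed here is which transcripts differ in conventional T cells of the mouse thymus when Dicer is deleted. It rests on 3 arrays of Dicer knock-out (KO) T cells and 3 arrays of wild-type (WT) T cells, taken from the sample titles, out of 15 arrays in 5 groups, and it covers 6838 genes. Both groups of mice were 4 weeks old and carried 2 floxed Dicer alleles (Dicer lox/lox). The KO mice were CD4-Cre +/- and the WT mice CD4-Cre -/-, so the floxed alleles were shared by both groups. The CD4 promoter drives the Cre recombinase, so deletion begins in thymocytes that express CD4. The T cells of both genotypes were sorted from the thymus as HSA low, TCRβ + and CD1d tetramer - cells, which leaves CD4 and CD8 single-positive cells together. For comparison, invariant NKT (iNKT) cells, which bind the CD1d tetramer and were sorted as stage 1-2 (NK1.1 -) or stage 3 (NK1.1 +) from WT mice and unstaged from KO mice, came from animals of the same genotypes and age, with 3 arrays each.

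Dicer is the RNase that cuts precursor hairpins into mature microRNAs, the small RNAs that guide Argonaute proteins to messenger RNAs and lower their stability and translation. Pairing depends mostly on the seed, bases 2 to 8 of the microRNA, so microRNAs with the same seed share many targets. In thymocytes microRNAs are known to tune T cell receptor signalling, survival and TGF-β responses. Mature T cells that leave the thymus have passed selection and lost HSA, the CD24 antigen.

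The microRNAs below have published targets among the genes measured here, and they are shown because Dicer makes them. Sequences are those of RefSeq (GRCm38.p6), 5′ to 3′, with the seed in capitals. No mature microRNA was measured on these arrays.
mmu-miR-17-5p (chr14:115043684-115043706, plus strand): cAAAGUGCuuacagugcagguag
mmu-miR-20a-5p (chr14:115044183-115044205, plus strand): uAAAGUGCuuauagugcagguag
mmu-miR-106b-5p (chr5:138165787-138165807, minus strand): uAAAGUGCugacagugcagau
mmu-miR-181a-5p (chr1:137966468-137966490 and chr2:38852741-38852763, plus strand): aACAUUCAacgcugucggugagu
mmu-miR-16-5p (chr3:69009918-69009939, plus strand, and chr14:61631936-61631957, minus strand): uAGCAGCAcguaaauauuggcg
mmu-miR-29b-3p (chr1:195037091-195037113, plus strand, and chr6:31063025-31063047, minus strand): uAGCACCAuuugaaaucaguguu
The first 3, miR-17, miR-20a and miR-106b, have the same seed, AAAGUGC. The seeds of miR-181a (ACAUUCA), miR-16 (AGCAGCA) and miR-29b (AGCACCA) differ from it and from each other.

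The T cell arrays were alike in signal, and KO T replicate 3 and, less so, WT T replicate 2 correlated less with their own groups. Between 32.5% and 40.2% of probes were detected per array, and the median raw intensity lay between 93.1 and 109 units. Pearson correlations of log2 intensity were 0.975 to 0.986 among the WT T arrays. KO T replicates 1 and 2 correlated at 0.976, while KO T replicate 3 correlated with them at 0.964 and 0.970. The 55 tested genes of oxidative phosphorylation had a mean log2 intensity of 8.42 on KO T replicate 3, against 9.31 to 9.51 on the other 5 arrays, and the 29 cytosolic ribosomal protein genes 11.75 against 12.29 to 12.42. Some values below are therefore also given without that array. WT T replicate 2 was the lowest array for 23.6% of all genes and KO T replicate 3 for 20.4%, and WT T replicate 2 had the lower correlations among the WT arrays, 0.975 and 0.976. The Y-linked gene Eif2s3y had a log2 intensity of 4.31 on WT T replicate 1 and 4.33 on KO T replicate 3, but 8.26 to 8.60 on the other 4 arrays. Each group thus held RNA of more than 1 animal, although the labels do not say that every array came from a separate animal. The p-values and standard errors rest on 1 estimate of spread per gene, taken within the groups of all 15 arrays. The iNKT arrays thus enter it, so a gene that varies among them has a larger standard error in T cells too. The number of arrays limits the precision.

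The sorted cells carried T cell transcripts on every array of both groups. Cd3e, the CD3ε chain of the receptor complex, had log2 intensities of 11.51, 11.76 and 11.72 on the WT arrays and 11.73, 11.19 and 11.54 on the KO arrays. Thy1 lay between 12.03 and 12.41 and Cd2 between 11.06 and 11.58 on the 6 arrays. The co-receptor genes Cd4 (6.11 to 6.87) and Cd8b1 (12.43 to 13.56) were both detected on every array. Of the 8 T cell surface genes Cd3d, Cd3e, Cd3g, Cd247, Cd2, Cd5, Cd6 and Thy1, none passed the test between KO and WT. Of 16 tested granulocyte and monocyte genes, 14 lacked detection on all 6 arrays, and the mean of all 16 stayed between 4.45 and 4.49. S100a8 (4.27 to 4.53) and Lyz2 (4.32 to 4.38), which define those cells, were among the undetected genes.

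Dicer1 itself had log2 intensities of 6.43, 6.59 and 6.30 on the WT arrays and 6.12, 6.44 and 6.60 on the KO arrays. The groups overlapped (change of -0.06 ± 0.25, SE, limma adjusted p = 0.977). A single probe reads Dicer1, and where it lies relative to the deleted exon is not given in the sources used here, so this level does not check the genotype labels.

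Few genes passed the threshold in KO T cells. Of 6838 genes, 8 rose (0.117%) and 2 fell (0.0292%) at a limma Benjamini-Hochberg adjusted p under 0.05, 10 in all (0.146%), and each of them changed at least 2-fold. The genes that rose were H2bc4, Gramd3, Socs3, Tec, Man2a1, Fam91a1, Iqgap2 and Klrd1, and those that fell were Lgals3 and Plac8. At an unadjusted p under 0.05 there were 343 higher and 304 lower genes, 9.46% of all. The threshold calls depend on the arrays used. Without KO T replicate 3 the direction of all 10 held, with log2 changes of 1.16 to 2.41 for the rising and -1.59 and -1.32 for the falling genes, but H2bc4 alone stayed under 0.05 (adjusted p 0.0372), and the other 9 had adjusted p of 0.0594 to 0.205. Leaving out WT T replicate 1 gave 0 genes (416 at an unadjusted p under 0.05), KO T replicate 2 gave 1 (Socs3), WT T replicate 2 gave 1 (Lgals3), WT T replicate 3 gave 4 and KO T replicate 1 gave 7. Median scaling in place of quantile normalization gave 0 genes and array weights gave 144.

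**Figure D1:**
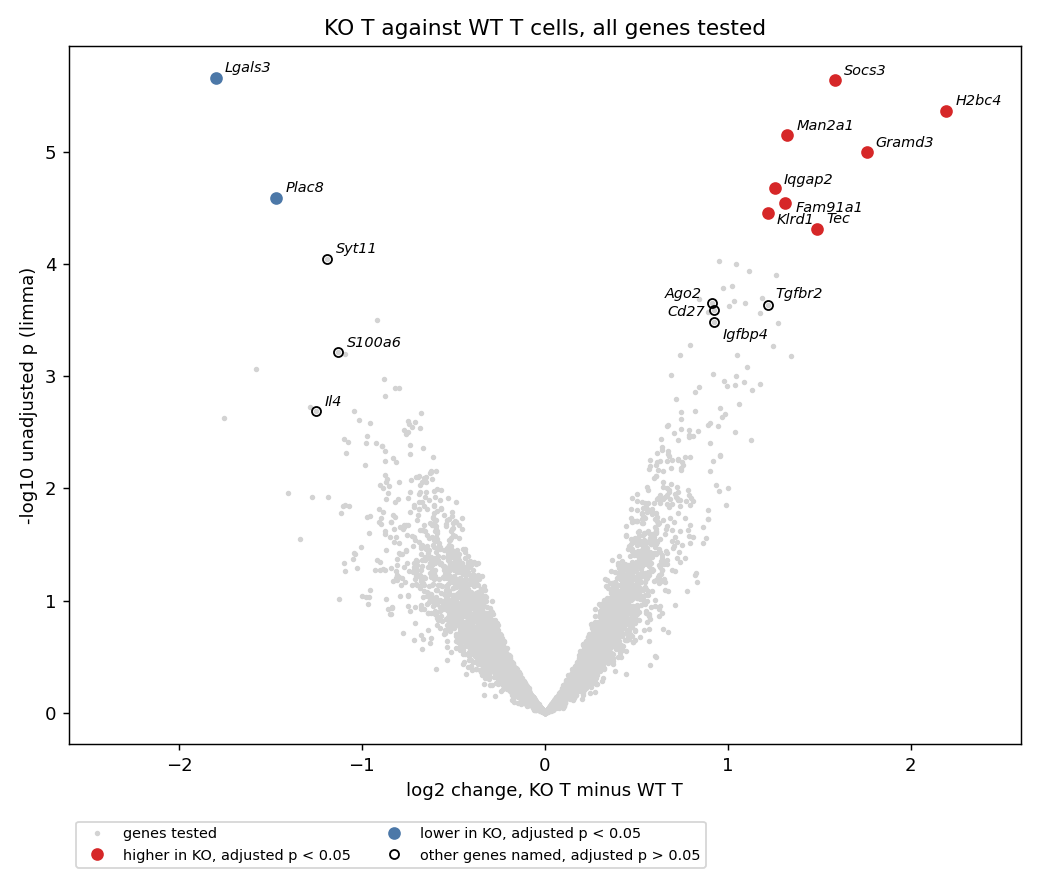
Log2 change in KO T against WT T cells (x axis) and -log10 of the unadjusted limma p (y axis) for the 6838 genes tested. The 8 genes that rose (red) and the 2 that fell (blue) lie at the top of the plot, and black circles mark other genes named in the text, such as Tgfbr2 and Ago2, whose adjusted p was above 0.05.

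Socs3, an inhibitor of cytokine receptor signalling through JAK kinases and STAT factors, had the smallest adjusted p of the rising genes. Its log2 intensities were 6.90, 7.03 and 7.0 on WT T replicates 1, 2 and 3 and 8.77, 8.20 and 8.71 on the KO T replicates. The WT arrays lay close together and every KO array lay above them. That is a 3.00-fold rise (1.59 ± 0.23 on the log2 scale, SE, 3 arrays per group, limma adjusted p = 0.00781), and the values after ± below are such standard errors unless named otherwise. Socs3 is a STAT target gene, and its promoter is shown because it holds a STAT motif. In the 300-base window from 250 bases before to 50 bases after the RefSeq start (GRCm38.p6, chr11:117969317-117969616, minus strand), the match to TTCNNNGAA is in capitals, 154 bases before the start.
Socs3 promoter: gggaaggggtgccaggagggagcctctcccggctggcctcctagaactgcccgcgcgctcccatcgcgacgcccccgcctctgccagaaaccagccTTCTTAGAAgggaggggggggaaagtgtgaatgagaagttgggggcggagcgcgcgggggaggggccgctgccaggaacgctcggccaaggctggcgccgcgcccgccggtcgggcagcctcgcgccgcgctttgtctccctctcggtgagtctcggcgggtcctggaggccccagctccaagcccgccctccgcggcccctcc
The motif reads the same on both strands. It occurs in 8.3% of 32851 such windows and in 7.04% of the 7277 windows of genes tested. Of the 6 genes past the threshold that have a window (Iqgap2, Lgals3, Man2a1, Plac8, Socs3 and Tec), Socs3 was the 1 with a match. The other 5 SOCS family genes tested, Socs2, Socs4, Socs5, Socs6 and Cish, which were chosen after their values were seen, had log2 changes of -0.23 to 0.48, and none passed.

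Klrd1 and Tec encode signalling proteins of lymphocytes. Klrd1 is CD94, which pairs with NKG2 chains into receptors for Qa-1. Its log2 intensities were 7.82, 7.93 and 8.10 in WT and 9.12, 9.46 and 8.93 in KO T cells, with no overlap. It rose 2.33-fold (1.22 ± 0.22, limma adjusted p = 0.0267). Tec, a tyrosine kinase that acts downstream of antigen receptors, gave 4.82, 4.55 and 5.22 in WT and 6.34, 6.30 and 6.42 in KO T cells. It was detected on 1 of 3 WT arrays and on all 3 KO arrays. Its fitted rise was 2.81-fold (1.49 ± 0.28, limma adjusted p = 0.0329).

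Man2a1, Iqgap2, Fam91a1 and Gramd3 encode proteins of membranes and the cell cortex. Man2a1 is Golgi mannosidase II, which trims N-glycans before their branching. Its log2 intensities were 7.87, 7.68 and 7.82 in WT and 8.89, 9.12 and 9.34 in KO T cells, and it rose 2.51-fold (1.33 ± 0.21, limma adjusted p = 0.0121). The KO arrays spread more widely than the WT arrays, with KO T replicate 3 highest. Iqgap2, a scaffold protein of the cell cortex, gave 6.99, 6.76 and 6.86 against 7.84, 8.22 and 8.33 and rose 2.39-fold (1.26 ± 0.22, limma adjusted p = 0.0237). Fam91a1, part of a trans-Golgi complex with Wdr11, gave 6.60, 6.28 and 6.94 against 7.60, 8.03 and 8.13 and rose 2.48-fold (1.31 ± 0.23, limma adjusted p = 0.0243). In these genes KO T replicate 1 was the lowest of the KO arrays and replicate 3 the highest. Gramd3, a GRAM domain protein, gave 6.56, 6.03 and 7.02 in WT and 7.78, 8.42 and 8.68 in KO T cells and rose 3.38-fold (1.76 ± 0.29, limma adjusted p = 0.0137). A second Gramd3 probe was detected on no T cell array.

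H2bc4, a gene for the core histone H2B, had the largest log2 change of the genes that rose. It had log2 intensities of 5.72, 5.29 and 5.15 in WT and 7.39, 8.20 and 7.16 in KO T cells and rose 4.58-fold (2.19 ± 0.33, limma adjusted p = 0.00975). KO T replicate 3 was the lowest of the KO arrays here and for Klrd1, unlike for the other genes that rose. A second H2bc4 probe was detected on no T cell array, and histone genes of the H2B family are near-identical copies, so the share of this gene in the signal is uncertain.

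Lgals3 and Plac8 were the genes that fell. Lgals3 is galectin-3, a lectin that binds β-galactosides and is expressed in activated and memory lymphocytes. Its log2 intensities were 8.36, 7.29 and 7.88 in WT and 6.43, 6.08 and 5.63 in KO T cells, and it fell 3.48-fold (-1.80 ± 0.26, limma adjusted p = 0.00781). Plac8, a small cysteine-rich protein of leukocytes, gave 8.02, 8.23 and 8.56 in WT and 6.84, 7.07 and 6.5 in KO T cells and fell 2.76-fold (-1.47 ± 0.26, limma adjusted p = 0.0243). For both genes KO T replicate 3 gave the lowest value. Both had higher levels in WT iNKT cells of stage 1-2, where Lgals3 stood at 12.27 ± 0.19 (SD, n = 3) and Plac8 at 11.54 ± 0.48, against 7.84 ± 0.53 and 8.27 ± 0.27 in WT T cells. In WT iNKT cells of stage 3 Lgals3 was at 11.25 ± 0.10 and Plac8 at 8.54 ± 0.34, the latter overlapping WT T cells. In bulk samples, fewer cells of a type and less RNA per cell cannot be told apart.

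**Figure D2:**
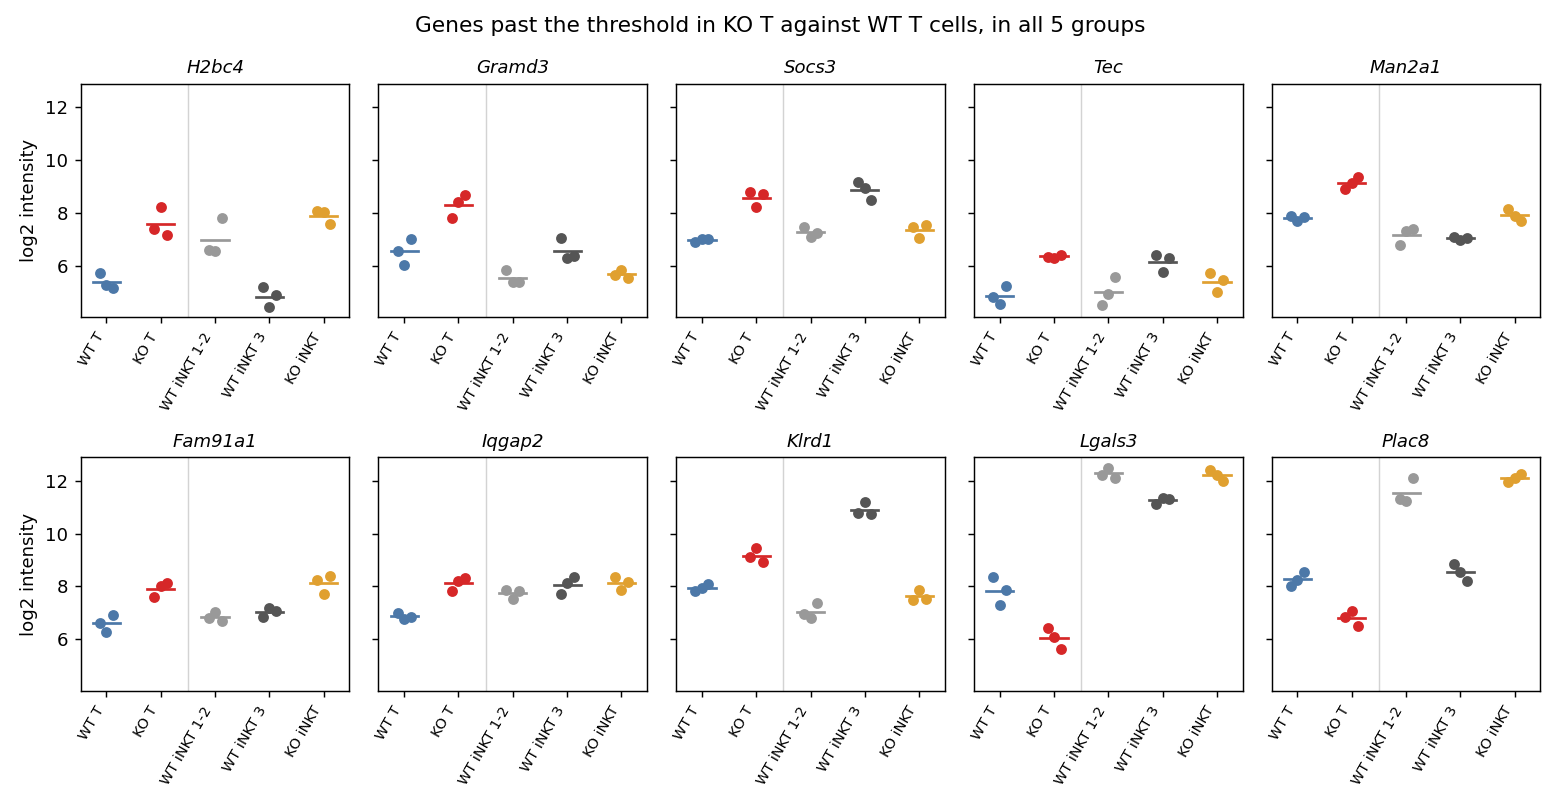
Log2 intensity (y axis) of the 10 genes past the threshold on every array of the 5 groups, with points for arrays and lines for group means of 3. In each panel the 3 KO T arrays (red) do not overlap the 3 WT T arrays (blue), a gap that choosing genes by a small p favours. Right of the grey line Lgals3 was higher in all iNKT groups than in T cells, while Plac8 in WT stage 3 cells (8.54) lay close to WT T cells (8.27).

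Of 12 tested genes typical of iNKT and innate-like T cells, 10 had a negative log2 change, 1 rose (Klrd1) and none fell, with a median of -0.13 (-0.12 without KO T replicate 3) against 0.00079 over all genes, of which 49.9% were lower. Klra7, Klre1 and Klrb1f, which make up 3 of the 10, lacked detection on all 6 T cell arrays, so that 7 of the 9 genes with a detection had a negative change. The mean level of the 12 genes was 5.65, 5.82 and 5.73 on the WT arrays and 5.47, 5.66 and 5.35 on the KO arrays, and the ranges overlapped narrowly. Il4, a cytokine of primed iNKT cells, was detected on all 3 WT arrays (5.52, 5.67 and 5.86) and on no KO array (4.48, 4.39 and 4.43), at least 1.81-fold lower, with a limma adjusted p of 0.23. Il2rb, the β chain of the IL-2 and IL-15 receptors, gave 5.25, 6.36 and 5.65 against 4.67, 5.23 and 4.45 (-0.97 ± 0.29, adjusted p = 0.259). Klrb1c, which encodes NK1.1, was detected on 2 WT arrays and on no KO array, and Cxcr6 had a change of -0.63 ± 0.28 (adjusted p = 0.517). The part of cells of this kind in the fall of Lgals3 and Plac8 was not tested.

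Of 21 tested effector and memory T cell genes, 1 fell (Lgals3), 13 (61.9%) had a negative change, against 49.9% of all genes, and the median was -0.33, or -0.14 without KO T replicate 3. S100a6, a calcium-binding protein, gave 5.80, 5.71 and 6.01 in WT and 4.72, 4.88 and 4.54 in KO T cells (-1.13 ± 0.27, limma adjusted p = 0.123), and the groups did not overlap. Il2rb, Il18r1 and Tbx21 are in this list and in the one before, and 3 of the 21 genes had no detection on any T cell array. Anxa2, an annexin chosen after its values were seen, had a change of -0.76 ± 0.22 (adjusted p = 0.257), while Cd44, the memory marker, had one of 0.55 ± 0.20 (adjusted p = 0.408). Ly6c1, a member of the maturation list below and not of this one, was likewise chosen after its values were seen. It gave 8.04, 7.70 and 8.74 against 6.79, 7.29 and 6.54 (-1.29 ± 0.35, adjusted p = 0.224). Of the 21 genes, 12 had their lowest value on KO T replicate 3, the lowest array for 20.4% of all genes. Of 15 regulatory T cell genes none passed, and Foxp3, their lineage factor, had a change of -0.01 ± 0.29.

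Genes for the receptors and SMAD proteins of TGF-β signalling, which restrains T cell activation, were mostly at higher levels in KO T cells without passing the test. Of 14 tested genes, 12 had a positive change, 6 of them at an unadjusted p under 0.05 (5.0% of all genes were higher at such a p), and the median was 0.31 (0.27 without KO T replicate 3). The mean of the 14 genes was 7.02 to 7.18 on the WT arrays and 7.35 to 7.57 on the KO arrays, with no overlap. Tgfbr2, the type II receptor and a published target of miR-17 and miR-20a, gave 11.00, 10.93 and 11.40 in WT and 12.21, 11.91 and 12.87 in KO T cells. Its change was 1.22 ± 0.26 with a limma adjusted p of 0.0677, and KO T replicate 3 was the highest array. With the replicate number as a block it became the 11th gene past the threshold, but these numbers were not found to pair the samples. A second Tgfbr2 probe, detected on 1 WT array and all 3 KO arrays, also stood higher in KO T cells (5.66 against 5.0). Among the partners, chosen after their values were seen, Tgfbr1 had a change of 0.72 ± 0.26 (adjusted p = 0.402), Tgfbr3 of 0.86 ± 0.34 (0.453) and Smad5 of 0.77 ± 0.24 (0.309). The other way went 2 of the 14 genes, with changes down to -0.51.

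The published microRNA targets as a group showed no uniform direction. Of 43 listed targets 24 were tested, 14 had a positive and 10 a negative change, none passed, and the median was 0.11 (0.07 without KO T replicate 3). For miR-181a, the genes Dusp6 (0.53 ± 0.26, adjusted p = 0.542), Ptpn22 (0.27 ± 0.25, 0.79) and Cd69 (0.43 ± 0.24, 0.611), all of which limit or follow T cell receptor signalling, had positive changes. Bcl2, a survival factor targeted by miR-16 and miR-181a, had a change of -0.05 ± 0.28. Ccne1, cyclin E1 and a target of miR-16, had a negative change: it gave 6.14, 5.96 and 5.98 in WT and 4.73, 5.37 and 5.37 in KO T cells (-0.87 ± 0.28, adjusted p = 0.309). Mcl1, an anti-apoptotic target of miR-29b, had a change of 0.54 ± 0.21 (adjusted p = 0.442). Tbx21, also a target of miR-29b, had a change of -0.10 ± 0.21 (0.937) and was detected on 1 WT array and no KO array. Cdkn1a, the cell cycle inhibitor p21 and a target of miR-106b, had one of -0.08 ± 0.33.

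Genes of the small RNA machinery itself were also tested. Of 16 genes none passed and 11 had a positive change, with a median of 0.16, or 0.03 without KO T replicate 3. Ago2, the Argonaute protein that binds microRNAs, gave 7.21, 7.46 and 7.51 in WT and 8.21, 8.12 and 8.59 in KO T cells. The groups did not overlap (0.91 ± 0.20, limma adjusted p = 0.0677). Drosha and Dgcr8, which make the precursors that Dicer cuts, had changes of -0.49 ± 0.26 (adjusted p = 0.577) and -0.47 ± 0.30 (0.651). Of 15 genes that host microRNAs in their introns or exons, 7 had a positive and 8 a negative change.

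T cell receptor and maturation genes were mostly at slightly higher levels in KO T cells. Of 23 genes of the receptor complex and its signalling, 19 had a positive change, none passed, and the median was 0.23, or 0.08 without KO T replicate 3, on which 12 of the 23 and 24.1% of all genes had their highest value. Cd27, a co-stimulatory receptor of the TNF receptor family, gave 11.35, 11.41 and 11.24 in WT and 12.01, 12.05 and 12.70 in KO T cells (0.92 ± 0.20, limma adjusted p = 0.069). Of 22 genes of single-positive maturation and thymic exit, 18 had a positive change, none passed and the median was 0.18 (0.09 without KO T replicate 3). Among the 4 negative changes was the largest change of this list, that of Ly6c1 (-1.29 ± 0.35, adjusted p = 0.224). Igfbp4 gave 11.21, 11.49 and 11.21 against 12.22, 12.10 and 12.37 (0.93 ± 0.21, adjusted p = 0.0757), with no overlap. Il7r, the receptor for IL-7, had a change of 0.60 ± 0.26 (adjusted p = 0.518), Ccr7 of 0.48 ± 0.31 (0.648) and Klf2, the factor that controls thymic exit, of 0.19 ± 0.27 (0.896).

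Genes of double-positive thymocytes, the stage before these cells, had a median of the same sign as those lists. Of 11 tested genes, 9 had a positive change, none passed, and the median was 0.33 (0.23 without KO T replicate 3). Their mean level was 6.55 to 6.71 on the WT arrays and 6.78 to 7.12 on the KO arrays. Dntt, the template-independent polymerase of that stage, was detected on no WT array and on all 3 KO arrays (4.47, 4.50 and 4.50 against 5.08, 5.60 and 5.27), at least 1.29-fold higher with an adjusted p of 0.542. Rag1, another gene of this list and also of the semi-mature list, was near background in both groups (4.80 to 5.36). The part of such cells in the results above was not tested. Of 8 CD8 lineage genes 1 rose (Klrd1), and 4 had a positive and 4 a negative change. Of 6 CD4 lineage genes none passed and 5 had a negative change, against 49.9% of all genes. Their median was -0.22 (-0.19 without KO T replicate 3). Lag3, 1 of the 5, lacked detection on all T cell arrays. The mean of the 6 genes was 7.79 to 7.98 on the WT arrays and 7.57 to 7.74 on the KO arrays. Cd8b1 had a change of 0.63 ± 0.31 (limma adjusted p = 0.547) and Cd4 one of -0.19 ± 0.23 (0.867). The share of CD4 and CD8 cells was not tested.

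Mean levels of oxidative phosphorylation and cytosolic ribosomal protein genes lay below WT on every KO array and were by far the lowest on KO T replicate 3. Of 55 genes of oxidative phosphorylation, 47 had a negative change, against 49.9% of all genes, none passed, and the median was -0.50. On KO T replicate 3, 46 of the 55 had their lowest value, against 20.4% of all genes, and without that array the median was -0.16. Atp5g1, a ring subunit of ATP synthase, shows the pattern, with 10.86, 10.81 and 10.63 in WT and 10.38, 9.72 and 8.94 in KO T cells (-1.09 ± 0.34, limma adjusted p = 0.303, and -0.72 without KO T replicate 3). Of 29 cytosolic ribosomal protein genes, 24 had a negative change, none passed, and the median was -0.26 (-0.15 without KO T replicate 3). Rps15 gave 11.90, 11.64 and 11.62 against 11.09, 11.29 and 9.5 (-1.09 ± 0.40, adjusted p = 0.411, and -0.53 without KO T replicate 3). KO T replicates 1 and 2 also lay below all WT arrays for both list means, at 9.36 and 9.31 against 9.41 to 9.51 for oxidative phosphorylation and at 12.29 against 12.40 to 12.42 for the ribosomal proteins.

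**Figure D3:**
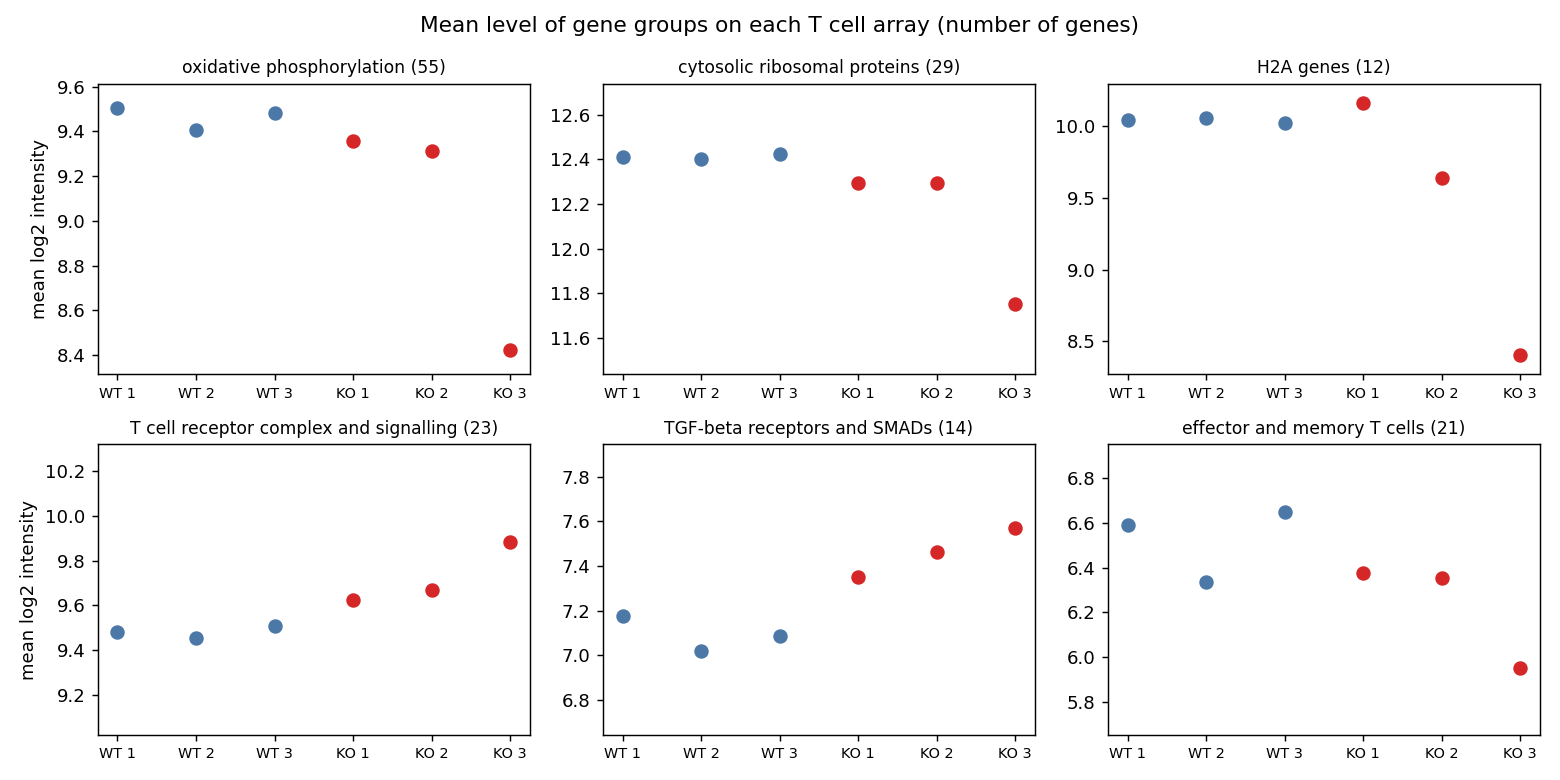
Mean log2 intensity (y axis, its range differing between panels) of 6 gene groups on each T cell array (x axis), WT in blue and KO in red. KO T replicate 3 lies far below the other arrays for oxidative phosphorylation, ribosomal proteins and H2A histone genes, while the TGF-β genes are at 7.35 to 7.57 on the KO arrays and 7.02 to 7.18 on the WT arrays.

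The remaining lists held no gene past the threshold. Genes of DNA replication (22 tested, median -0.16) and mitosis (14, -0.06), p53 targets and pro-apoptotic genes (16, -0.06), pro-survival genes (10, -0.02) and glycolysis genes (19, -0.02) had medians within 0.16 of 0. Among the 10 pro-survival genes 3 were higher at an unadjusted limma p under 0.05, against 5.0% of all genes, and none lower. Their median changed sign in 10 of 18 alternatives. Of 28 type I interferon response genes, 14 had a positive and 14 a negative change. Among them the guanylate-binding protein Gbp3 gave 6.10, 5.83 and 6.51 in WT and 6.67, 6.87 and 7.28 in KO T cells (0.79 ± 0.28, limma adjusted p = 0.402). Bst2, tetherin, gave 8.11, 7.66 and 7.26 against 6.5, 6.65 and 6.32 (-1.19 ± 0.42, adjusted p = 0.402), so that members of this list went opposite ways. Of 5 tested B cell genes Cd79b had a change of -1.01 ± 0.44 (adjusted p = 0.51). It gave 6.34, 6.07 and 5.94 in WT and 5.29, 5.33 and 4.71 in KO T cells, with no overlap. A second Cd79b probe, detected on 1 WT and 1 KO array, had a change of -0.20. The other 4 genes had changes within 0.13 of 0, but H2-Aa, H2-Ab1 and H2-Eb1 lacked detection on all T cell arrays. The part of B cells in the results above was not tested. The medians were 0.07 for immediate early and heat shock genes (20 tested), 0.06 for semi-mature thymocytes (9), -0.04 for cholesterol synthesis (9) and 0.25 for dendritic cells (6), and imprinted genes, γδ T cells, thymic stroma and erythroid cells had at most 3 tested genes each.

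**Figure D4:**
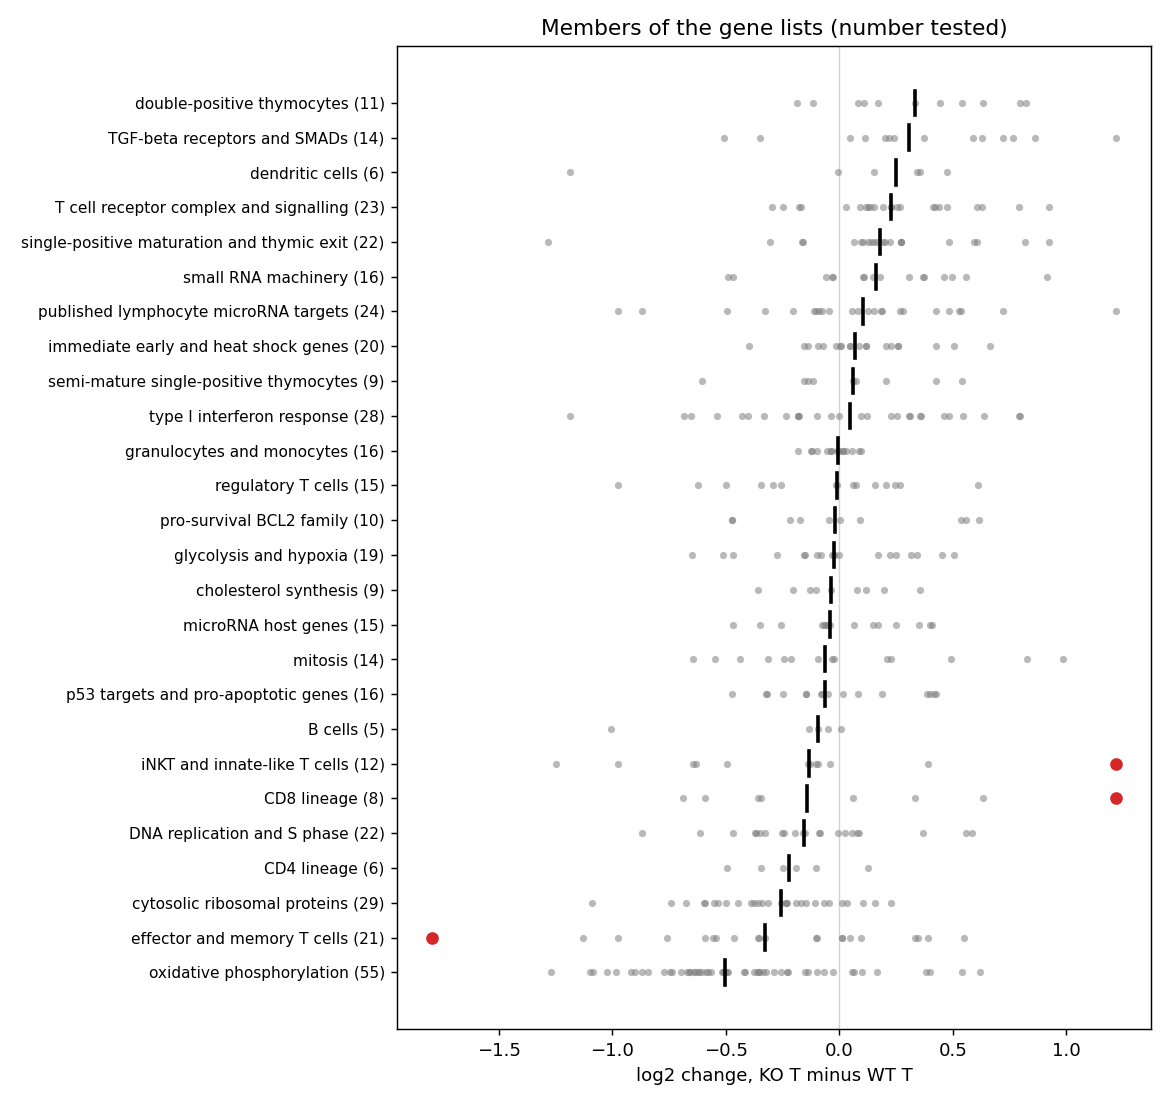
Log2 change in KO T against WT T cells (x axis) of each tested member (points) of the gene lists (y axis, number tested in brackets), with a black bar at each list's median and red points for genes past the threshold. Lists with at most 3 tested genes are not drawn. Among those drawn the medians run from -0.50 for oxidative phosphorylation to 0.33 for double-positive thymocyte genes, and the red points are Lgals3 and Klrd1, the latter in a pair of lists.

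The same deletion was compared between T cells and iNKT cells, whose KO arrays were set against WT iNKT cells of stage 1-2. In iNKT cells 206 of 6838 genes (3.01%) passed the threshold, against 10 in T cells. The count in iNKT cells compares an unstaged KO sample with sorted stage 1-2 cells, so that stage and genotype cannot be told apart there. The granulocyte gene S100a8 stood at 13.22 ± 0.38 (SD, n = 3) on the arrays of WT stage 1-2, at 14.04 ± 1.13 on those of KO iNKT cells, and was undetected in T cells, and the part of such cells in the differences below was not tested. Fam91a1 was the 1 gene past the threshold in both, 10% of the T cell genes and 0.485% of the iNKT cell genes, with log2 changes of 1.31 ± 0.23 in T cells and 1.27 ± 0.23 in iNKT cells (limma adjusted p = 0.0068). Tgfbr2 was also alike, with 1.22 ± 0.26 in T cells and 1.18 ± 0.26 in iNKT cells (adjusted p = 0.0206), as was H3f3b, a gene for the replacement histone H3.3, with 0.95 ± 0.19 (adjusted p = 0.0529) and 0.94 ± 0.19 (0.0104). Of the 206 genes, 137 (66.5%) had the same sign in T cells, against 59.9% of all genes, and 38 (18.4%) had the same sign and an unadjusted p under 0.05 there, against 7.02% of all genes.

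The difference of the effects passed the test for 12 genes (0.175%), but 10 of them lay near background in T cells. These 10 entered the test only through the iNKT groups, and 6 of them had no detection on any T cell array. The count is 0 when genes must be detected in a T cell group (442 at an unadjusted p under 0.05). Of the genes changed in T cells only Plac8 was among them: it fell in T cells and had a change of 0.55 ± 0.26 in iNKT cells, a difference of 2.02 ± 0.36 (limma adjusted p = 0.0342). For Lgals3 the change was -1.80 in T cells and -0.07 ± 0.26 in iNKT cells, where it stayed at 12.20 ± 0.19 (SD, n = 3), and the difference of 1.73 ± 0.36 had an adjusted p of 0.0836. Socs3 rose by 1.59 in T cells and had a change of 0.08 ± 0.23 in iNKT cells (difference -1.50 ± 0.32, adjusted p = 0.0843). WT iNKT cells of stage 3 had Socs3 at 8.86 ± 0.36 and Klrd1 at 10.90 ± 0.25. The difference count is 0 without each of KO T replicates 1, 2 and 3 and WT T replicates 1 and 3, and it is 338 when the mean of both WT iNKT stages is the reference.

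**Figure D5:**
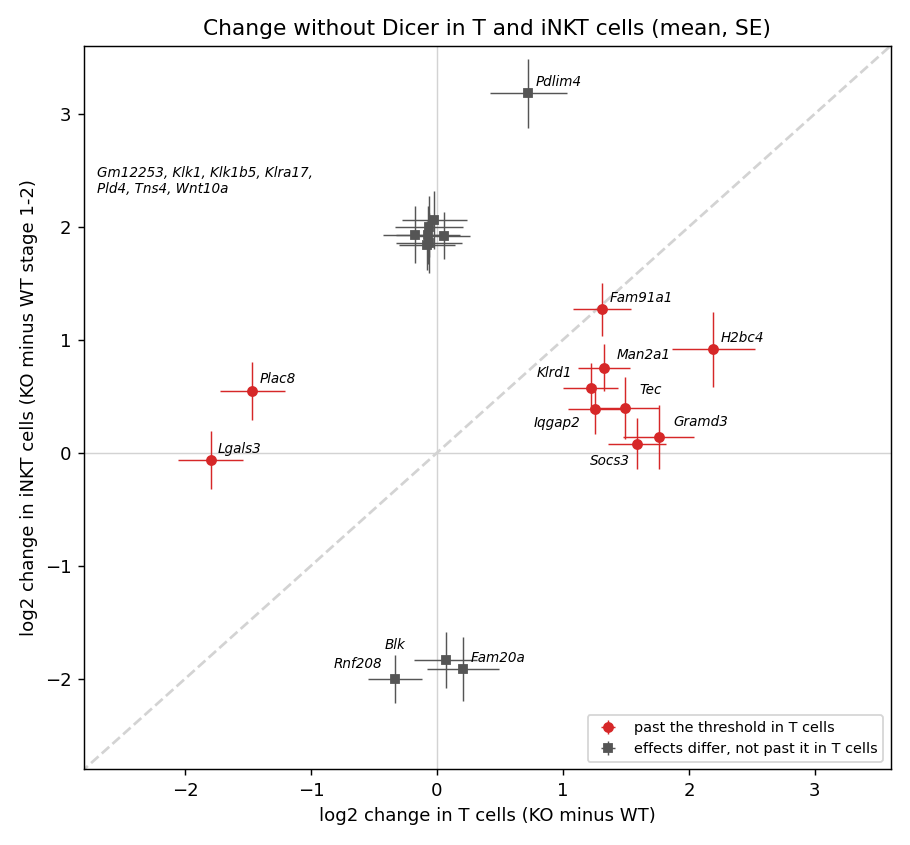
Log2 change without Dicer in T cells (x axis) and in iNKT cells against WT stage 1-2 cells (y axis), with standard errors, for the 10 genes past the threshold in T cells (red circles) and the 11 other genes whose effects differed (grey squares). Fam91a1 lies on the dashed line of equal change, Plac8 and Lgals3 fell in T cells and had changes of 0.55 and -0.07 in iNKT cells, and Pdlim4 lies highest with 3.18 in iNKT and 0.72 in T cells.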

How the data were processed

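Amplified, biotin-labelled RNA of sorted thymic cells was read on 15 Illumina mouse bead arrays with 1 colour, 3 in each of 5 groups, per the labels' protocols. The deposited table holds, per the file headers, a mean bead signal per probe, an intensity on a linear scale that the authors had not normalized, and a detection p-value per probe and array. GenomeStudio is named in the submitters' processing notes, with no version. A second deposited table of intensity values normalized by the authors was used as an alternative. Gene names came from the platform annotation and a RefSeq table (GRCm38.p6): of 25697 probes 23978 had 1 symbol, and 1719 without a single symbol were left out.

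The neqc function of limma 3.58.1 (R 4.3.3, offset 16) gave background-corrected, quantile-normalized log2 values. Probes were kept if some group had a detection p under 0.05 on all of its 3 arrays, and each gene was read by its kept probe of highest mean. That left 6838 genes. A group-means model over all 15 arrays (10 residual degrees of freedom) was followed by contrasts and eBayes, two-sided, with Benjamini-Hochberg adjustment over all genes at 0.05. Where every array of the lower group missed detection, the fold is a bound ("at least") against that group's detection limit. The model fit and its contrasts were tested on simulated log2 values. The background correction, normalization, detection filter and choice of probe were not tested in this way. Figures were drawn with matplotlib 3.10.9 in Python 3.11.15.

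The comparison, the 31 gene lists and the rule for named genes were chosen with earlier results of these data known. The rule took up to 12 genes with the largest change in each direction among those past the threshold, the 6 of smallest adjusted p in each direction, up to 3 members per list that passed or else the 1 of smallest adjusted p, Dicer1, T cell markers, and the 4 largest differences of effect each way. Every other gene named was chosen after its values were seen. Same-numbered WT and KO T arrays did not deviate together (correlations of 0.0060, -0.095 and 0.021), so the numbers were not taken to pair samples.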

Additional observations from a re-analysis of the deposited data

Results flagged for a closer look

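The change without Dicer differed between iNKT and T cells for 12 genes by a test of the difference itself (limma contrast of the 2 effects, adjusted p under 0.05), with the iNKT effect taken against WT stage 1-2 cells. The difference, iNKT effect minus T effect on the log2 scale, was 2.46 for the LIM domain protein Pdlim4, which had 7.14, 7.31 and 7.06 in WT and 7.95, 8.09 and 7.65 in KO T cells. It was 2.02 for Plac8, the 1 of the 12 that passed in T cells. For the other 10 genes the T cell values lay near background: the difference was 2.11 for the Ly49 family gene Klra17, 2.08 for the Wnt ligand Wnt10a, 2.07 for Tns4, 2.00 for Pld4, 1.92 for Gm12253, 1.91 for Klk1b5 and 1.86 for Klk1. It was -1.67 for Rnf208, -1.90 for the Src family kinase Blk and -2.12 for Fam20a. All of these 10 entered the test only through the iNKT groups, and Blk, Gm12253, Klk1, Klk1b5, Klra17 and Pld4 were detected on no T cell array. With genes detected in a T cell group the count is 0 (442 at an unadjusted p under 0.05).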

How the results depend on the processing

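The 10 genes kept their direction under all 18 alternatives each, with adjusted p of 0.0032 to 0.254 when 1 array was left out and of 0.000314 to 1 otherwise. The count of 10 became 27 with quantile normalization alone, 28 in the authors' table, 18 with no detection filter, 26 with trend and robust, 20 on T arrays alone, 144 with array weights (93 rising, 51 falling) and 0 with median scaling (87 unadjusted, median of all genes 0.16), and 0 to 7 with 1 array left out. The replicate block gave 11 genes, adding Tgfbr2, and the numbers do not pair the samples. The 12 differences became 338 with both WT stages, 5 with quantile normalization alone and in the authors' table, 0 with median scaling (94 unadjusted) and with genes detected in a T cell group (442), 1 with no filter, 92 with array weights, 8 with the replicate block, and 0 to 84 with 1 array left out. Causes were not tested. Among named genes, signs changed for 8, none past the threshold in T cells: under median scaling Cd4 was 0.027, Dicer1 0.18 and Eif2s3y 0.18, and Eif2s3y was 0.64 with array weights. With 1 array left out, Dicer1 ranged from -0.16 to 0.076, Cd5 from -0.42 to 0.012, Eif2s3y from -1.45 to 1.29, Fam20a from -0.0047 to 0.33, Klra17 from -0.30 to 0.035, Tns4 from -0.14 to 0.076 and Wnt10a from -0.15 to 0.21. Of the list medians under alternatives 477 stayed within their spread and 75 did not. With every kept probe tested in place of 1 per gene, 13 probes passed in KO against WT T cells (11 rising, 2 falling). Signals near background, as for Tec, limit the fold.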

Other observations

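Several gene families were looked at after their values had been seen, and they are given as values with no test of the family. Among 44 tested histone genes 1 rose (H2bc4) and none fell, with 15 positive and 29 negative changes, while 49.9% of all genes had a negative change. In addition, H3f3b (10.17, 10.32 and 10.13 in WT, 11.04, 11.13 and 11.30 in KO T cells, adjusted p = 0.0529) and H1f2 (6.40, 6.21 and 6.49 against 7.33, 7.65 and 7.40, adjusted p = 0.0677) had KO arrays above all WT arrays. Of 8 H2B genes 7 had a positive change. Of 12 H2A genes 11 had a negative change, and 10 had a value on KO T replicate 3 below every other T cell array: their mean was 8.40 there, 10.02 to 10.06 on the WT arrays, and 10.17 and 9.64 on KO T replicates 1 and 2. H2ac11 gave 9.0, 8.99 and 8.88 in WT and 8.85, 8.37 and 6.28 in KO T cells. These genes are near-identical copies, so a probe may read more than 1 of them.

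Among 20 genes of N-glycan processing, Man2a1 rose, and Man1a, an earlier Golgi mannosidase detected on 1 WT array and all 3 KO arrays, gave 4.69, 4.46 and 5.05 in WT and 5.64, 5.75 and 5.96 in KO T cells (1.05 ± 0.21, limma adjusted p = 0.0529). Stt3b, a catalytic subunit of oligosaccharyltransferase, gave 9.59, 9.90 and 9.70 against 10.25, 10.78 and 11.12 (adjusted p = 0.23). The median of the 20 genes was 0.018. Of 67 mitochondrial ribosome genes 57 had a negative change, against 49.9% of all genes. On KO T replicate 3, the lowest array for 20.4% of all genes, 44 of the 67 had their lowest value.

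Genes with an adjusted p just above 0.05 included Syt11, a synaptotagmin (8.34, 8.46 and 8.26 in WT, 7.31, 7.06 and 7.12 in KO T cells, adjusted p = 0.0529), Hsd11b1, the enzyme that regenerates active glucocorticoid (9.46, 9.16 and 9.64 against 10.28, 10.62 and 10.71, adjusted p = 0.056), and Emb, embigin (9.25, 9.07 and 9.0 against 10.10, 10.34 and 10.68, adjusted p = 0.0574). In iNKT cells Hsd11b1 rose by 1.28 (adjusted p = 0.00546). For Mbnl2 the result depended on the probe. The probe used gave a change of 0.80 ± 0.19 in T cells (limma adjusted p = 0.114). A second probe, detected on every T cell array, gave means of 6.37 in WT and 7.94 in KO T cells. Its change was 1.57, with a limma unadjusted p of 6.99e-07 in a fit of every probe.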
